A study of Mus musculus with 16 samples.

Results

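The AP-1 family of transcription factors was followed here through 7 genes, Fos, Fosb, Fosl1, Fosl2, Jun, Junb and Jund, in mouse striatum. Its members were all probe sets whose platform annotation names exactly 1 gene symbol and names one of these genes, which gave 11 probe sets of 34945 such probe sets, or 7 of 18193 genes. Fosl1, Fosl2, Jun and Jund were each read by 2 probe sets, and Fos, Fosb and Junb by 1. A probe set is a group of short oligonucleotides against 1 transcript, and each was tested on its own.

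AP-1 is a dimer of leucine zipper proteins. Jun proteins pair with themselves or with a Fos protein, whereas Fos proteins need a Jun partner, and the dimers bind short palindromic DNA sites in the control regions of many genes. Fos, Fosb, Fosl2 and Junb are immediate early genes, transcribed within minutes of synaptic input, calcium entry or dopamine signalling in striatal neurons, whereas Jund is held at a steady level in most cells. DREAM, the product of Kcnip3, is a calcium-binding repressor that sits on a DNA element called the DRE in the absence of calcium, and Fos is among the genes described as its targets.

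The series measured total RNA from whole striatum on Affymetrix GeneChip mouse genome arrays, 16 arrays in all, 4 for each of 4 genotypes on a B6xCBA background. The genotypes were wild type, DREAM+/- (labelled as carrying 1 knocked-out copy of Kcnip3), R6/2, and R6/2 x DREAM+/-, made by crossing DREAM knockout mice with R6/2 mice. R6/2 mice carry a human huntingtin transgene limited to its first exon and holding an expanded CAG repeat, driven by the human huntingtin promoter, and are a fast model of Huntington's disease that holds a fragment of the protein rather than the whole. The question addressed was what lowering DREAM does to gene expression in healthy and R6/2 striatum. The labels give no age or sex for the mice and do not say whether animals were pooled. The labels name the cell type as striatal neurons, but the RNA came from the whole tissue, so fewer cells of a type and less RNA per cell cannot be told apart. The submitters call the 4 arrays of a genotype biological replicates, yet no label ties an array to an animal, and p-values therefore measure the spread between these samples.

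Levels are log2 values as deposited, and levels of different probe sets were not set against each other. Kcnip3 was lower in every array labelled DREAM+/- or R6/2 x DREAM+/- than in every other array. Its probe set 1418544_at read 9.41 to 9.89 in wild type, 9.04 to 9.23 in R6/2, 7.72 to 7.82 in DREAM+/- and 7.43 to 7.67 in R6/2 x DREAM+/-. The corresponding ranges of 1449129_a_at were 8.22 to 8.83, 7.89 to 8.10, 5.40 to 5.85 and 5.24 to 5.57. DREAM+/- thus read 26.9% of wild type (95% interval 23.4 to 30.9) on 1418544_at and 13% (10.9 to 15.5) on 1449129_a_at, both lower than an equal output from each of 2 copies would leave. The direction follows the label and the size goes beyond the loss of 1 copy. What lies behind the size was not tested, and which part of Kcnip3 each probe set reads was not used here, so DREAM+/- names the mice by their label throughout. Without any DREAM mutation, the R6/2 mice had less Kcnip3 RNA too: it fell by 0.56 (-0.555, adjusted p = 0.000775) on 1418544_at and fell by 0.54 (-0.535, adjusted p = 0.00688) on 1449129_a_at, to 68.1% and 69.0%, with every R6/2 array below every wild-type array on both.

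Markers of medium spiny neurons, the main neurons of the striatum, were bright on every array, and none of the 8 measured lay under the 40th percentile of all probe sets (5.94), whereas Kcnip3 1449129_a_at did in DREAM+/- and R6/2 x DREAM+/-. Arrays of 1 genotype correlated at 0.991 to 0.998 over all probe sets. The lowest r was 0.9908 within wild type and 0.9906 within R6/2 x DREAM+/-, against 0.9964 within R6/2 and 0.9977 within DREAM+/-. Without wild-type replicate 3, 1403 of all probe sets were called in DREAM+/- against wild type, beside 790 with it. By other measures a pair of arrays stood apart. R6/2 x DREAM+/- replicate 3 lay at 35.7 on the third principal component against -14.5 to 5.01 for the others, and Xist read 6.49 in R6/2 replicate 1 against 11.04 to 12.16 elsewhere. Calls that rest on R6/2 replicate 1 or R6/2 x DREAM+/- replicate 3 are given with and without them.

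The promoters of Junb, Fosb and Fosl2, together with Fos as the described DREAM target, are printed to show what DRE sequence each holds. Jun also had calls but is not printed, and its matches are counted below. Windows are the 250 bases before the annotated transcription start in RefSeq on GRCm38.p6, written 5′ to 3′ on the gene's strand. RefSeq promoters were matched for 6 of the 7 genes; Fosl1 was not matched. Capitals mark each copy of GTCA, the core of the DRE, or of its reverse complement TGAC. Fos lies at chr12:85473640-85473889 on the plus strand, Junb at chr8:84978749-84978998 on the minus strand and Fosl2 at chr5:32136222-32136471 on the plus strand. For Fosb the 177 bases upstream of the outermost annotated start were used, chr7:19310119-19310295 on the minus strand.
Fos: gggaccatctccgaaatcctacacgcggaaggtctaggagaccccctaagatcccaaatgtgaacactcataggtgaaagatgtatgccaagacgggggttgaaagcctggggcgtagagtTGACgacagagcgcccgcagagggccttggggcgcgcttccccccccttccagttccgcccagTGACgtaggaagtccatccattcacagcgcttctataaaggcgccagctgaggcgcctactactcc
Junb: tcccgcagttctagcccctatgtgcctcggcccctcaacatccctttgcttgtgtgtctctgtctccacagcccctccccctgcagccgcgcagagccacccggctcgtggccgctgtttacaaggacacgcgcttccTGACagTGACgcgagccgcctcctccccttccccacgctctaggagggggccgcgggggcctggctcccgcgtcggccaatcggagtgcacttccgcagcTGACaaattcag
Fosb: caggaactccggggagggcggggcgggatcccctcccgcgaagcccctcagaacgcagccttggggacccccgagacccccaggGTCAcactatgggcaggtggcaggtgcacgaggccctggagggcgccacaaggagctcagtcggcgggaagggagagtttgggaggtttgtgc
Fosl2: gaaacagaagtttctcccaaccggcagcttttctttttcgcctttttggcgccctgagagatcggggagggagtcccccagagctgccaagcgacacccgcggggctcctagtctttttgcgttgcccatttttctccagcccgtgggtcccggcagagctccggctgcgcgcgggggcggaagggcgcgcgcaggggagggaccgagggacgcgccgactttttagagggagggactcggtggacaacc

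The Fos window held 2 core matches, starting at -129 and -66 from the transcription start, and both also spelled TGACG, the short form of the cyclic AMP response element (CRE), which overlaps the DRE core by 4 letters. Both were searched on both strands. It also held TATAAA at -33. Junb held 3 core matches, at -112, -106 and -12, of which the second also spelled TGACG. Fosb held 1, marked by capitals in its shorter window of 177 bases, and Fosl2 held 0. Among the genes not printed, Jun held 2 and Jund held 1. Over 32851 RefSeq promoters 80.2% of windows of this length held GTCA on either strand, so the core alone marks most promoters, and 17.8% held TGACG. No member window held a full CRE (TGACGTCA, 1.55% of promoters), an AP-1 site (TGANTCA, 6.75%) or a CArG box (1.47%). A match is a description of letters and not a measured binding site, and no match says only that these letters are not in this window.

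Among the Fos proteins, Fosl2 (Fra-2, a partner of Jun proteins whose induction outlasts that of Fos) showed the largest difference between R6/2 and wild type. Its probe set 1437247_at read 8.70, 8.81, 8.93 and 8.56 in the wild-type replicates. It read 8.08, 7.98, 7.47 and 7.08 in R6/2. In DREAM+/- the levels were 8.26, 8.13, 8.13 and 8.09, and in R6/2 x DREAM+/- they were 7.76, 7.94, 8.27 and 7.79. All 12 arrays that carry either change lay below every wild-type array. R6/2 replicates 3 and 4 were the lowest of the series, and the R6/2 SD of 0.47 was the widest of the 4 groups. Fosl2 fell by 1.10 on the log2 scale in R6/2 (SE 0.17, 95% interval -1.46 to -0.74, limma with Benjamini-Hochberg adjusted p = 0.000353), to 46.7% of the wild-type level. In DREAM+/- the difference from wild type was -0.60 (95% interval -0.96 to -0.24), 66.1% of wild type, with no overlap between the groups, but its adjusted p of 0.0805 missed the threshold of 0.05. That p was smaller in 5 alternatives that reached the threshold, among them the fit on the 2 groups alone (0.00357), R6/2 replicate 4 left out (0.0224) and both arrays that stood apart left out (0.0275). In R6/2 x DREAM+/- it fell by 0.81 (adjusted p = 0.00341).

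The second Fosl2 probe set, 1422931_at, did not show this. Its levels were 7.38, 7.39, 7.30 and 7.53 in wild type and 7.45, 7.30, 7.26 and 7.26 in R6/2, and those groups overlapped. They were 7.10, 7.37, 7.27 and 7.16 in DREAM+/- and 7.21, 7.32, 7.29 and 7.28 in R6/2 x DREAM+/-. The difference was -0.08 for R6/2 (adjusted p = 0.474) and -0.18 for DREAM+/- (adjusted p = 0.226) against wild type. Within genotypes the 2 Fosl2 probe sets hardly moved together (r = 0.18 of their deviations from group means over 16 arrays). Which part of the transcript each reads was not used here, so the Fosl2 result belongs to 1 of its 2 probe sets.

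Fos, the founding member and the usual marker of recent neuronal activity, read 9.60, 9.60, 9.95 and 8.80 in wild type. In DREAM+/- the levels were 9.0, 8.39, 8.53 and 8.60. The R6/2 arrays read 9.19, 9.13, 8.0 and 8.32, and those of R6/2 x DREAM+/- 8.63, 8.94, 8.35 and 9.09. Replicates 1, 2 and 3 of wild type lay above every other array, and replicate 4 lay within the range of each of the other genotypes, so every group overlapped wild type. The R6/2 arrays split into replicates 1 and 2 at 9.13 or above and replicates 3 and 4 at 8.32 or below. Fos fell by 0.83 in R6/2 (SE 0.27, 95% interval -1.39 to -0.27, adjusted p = 0.0493), to 56.4% of wild type. This call lay at the threshold and was lost in 16 of 25 alternatives, with an adjusted p of up to 0.157 and a difference of -0.61 when R6/2 replicate 3 was left out. The differences for DREAM+/- (-0.86, 55.2% of wild type, adjusted p = 0.115) and for R6/2 x DREAM+/- (-0.74, adjusted p = 0.0732) were of similar size and did not pass. Without wild-type replicate 4 the DREAM+/- difference was -1.09 with an adjusted p of 0.0422.

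Fosb, whose splice product ΔFosB builds up in striatum under chronic stimulation, was lowest in DREAM+/-. The 1 probe set does not separate the splice forms. It read 6.61, 7.01, 6.84 and 6.85 in wild type and 6.29, 6.24, 6.21 and 6.07 in DREAM+/-. It read 6.83, 6.99, 6.58 and 6.50 in R6/2 and 6.48, 6.41, 6.81 and 6.42 in R6/2 x DREAM+/-. The DREAM+/- arrays were the lowest 4 of the 16, below every array of each other genotype, whereas R6/2 overlapped wild type. Fosb fell by 0.63 in DREAM+/- (SE 0.11, 95% interval -0.86 to -0.39, adjusted p = 0.00549), to 64.8% of wild type, and this call held in all 25 alternatives. In R6/2 the difference from wild type was -0.10 (95% interval -0.34 to 0.13, adjusted p = 0.614). R6/2 x DREAM+/- lay 0.33 above DREAM+/- (95% interval 0.09 to 0.56) with no overlap, but the adjusted p was 0.0956. How many of all probe sets had every array higher in that comparison was not counted, and 5.81% had every array lower.

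Fosl1 (Fra-1), best known from wounded epithelium and tumours, was at the low end of the array in every genotype. Its probe sets 1417487_at and 1417488_at lay between 5.03 and 5.86 on all arrays, under the 40th percentile of 5.94. No difference between genotypes lay outside -0.07 to 0.06, or outside -0.10 to 0.09 under any alternative, and the smallest adjusted p under any was 0.478. At this brightness a change in Fosl1 may not be readable.

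Among the Jun proteins, Junb, which pairs with Fos proteins and is induced with them but activates weakly by itself, was lower than wild type in all 3 other genotypes. It read 8.28, 8.46, 8.84 and 7.84 in wild type. In DREAM+/- the levels were 7.67, 7.70, 7.70 and 7.52. The R6/2 arrays read 7.82, 7.73, 7.27 and 7.53, and those of R6/2 x DREAM+/- 7.43, 7.57, 7.56 and 7.51. Wild-type replicate 4 was the lowest of its group and still lay above all 12 arrays of the other genotypes. Junb fell by 0.77 in R6/2 (SE 0.15, 95% interval -1.09 to -0.44, adjusted p = 0.00292), to 58.7% of wild type. It fell by 0.71 in DREAM+/- (95% interval -1.03 to -0.38, adjusted p = 0.0197), to 61.2%, and by 0.84 in R6/2 x DREAM+/- (adjusted p = 0.00124). The R6/2 call held in all 25 alternatives. The DREAM+/- call was lost in 5 of 25, with an adjusted p of up to 0.0722, namely in the fit on the 2 groups alone and without DREAM+/- replicate 1, 2 or 4 or wild-type replicate 2.

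Jun, the partner that every Fos protein can use, showed a smaller difference with tight replicates. Its probe set 1417409_at read 8.69, 8.89, 8.84 and 8.93 in wild type and 8.63, 8.65, 8.75 and 8.65 in DREAM+/-. It read 8.40, 8.54, 8.61 and 8.59 in R6/2 and 8.38, 8.46, 8.50 and 8.43 in R6/2 x DREAM+/-. No array with the R6/2 transgene reached the lowest wild-type or DREAM+/- array. Jun fell by 0.30 in R6/2 (SE 0.06, 95% interval -0.43 to -0.17, adjusted p = 0.00316), to 81.1% of wild type, in all 25 alternatives. On the DREAM+/- background it fell by 0.23 (95% interval -0.36 to -0.10, adjusted p = 0.0315), a call that was lost in 7 of the fits that left out 1 array, with an adjusted p of up to 0.107. DREAM+/- itself differed from wild type by -0.17 (adjusted p = 0.197), with overlap.

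The other Jun probe set, 1448694_at, read 8.34, 8.36, 8.32 and 8.41 in wild type and 8.0, 8.11, 8.21 and 8.32 in R6/2. It fell by 0.20 in R6/2 (SE 0.06, adjusted p = 0.0405), to 87.2%, and the call was lost in 14 of 24 alternatives, with an adjusted p of up to 0.132. R6/2 replicate 4 touched the lowest wild-type array. In DREAM+/- it read 8.32, 8.42, 8.33 and 8.35, level with wild type, and in R6/2 x DREAM+/- it read 8.20, 8.29, 8.29 and 8.33. Both Jun probe sets thus fell in R6/2, and their deviations within genotypes had r = 0.59 over 16 arrays.

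Jund, the steady Jun protein that restrains growth in many cells, passed in no comparison. Its bright probe set 1449117_at read 10.43, 10.58, 10.61 and 10.75 in wild type and 10.44, 10.61, 10.54 and 10.55 in R6/2. It read 10.31, 10.44, 10.47 and 10.49 in DREAM+/- and 10.43, 10.28, 10.48 and 10.41 in R6/2 x DREAM+/-. The groups overlapped, and the difference from wild type was -0.06 in R6/2 (95% interval -0.20 to 0.09) and -0.19 in R6/2 x DREAM+/- (adjusted p = 0.0679). The dim probe set 1440265_at lay between 5.11 and 5.74, with its highest mean, 5.52, in R6/2. Its R6/2 difference was 0.25 (0.245 before rounding, adjusted p = 0.105), and without R6/2 replicate 2 it was 0.34 with an adjusted p of 0.0152.

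**Figure D1:**
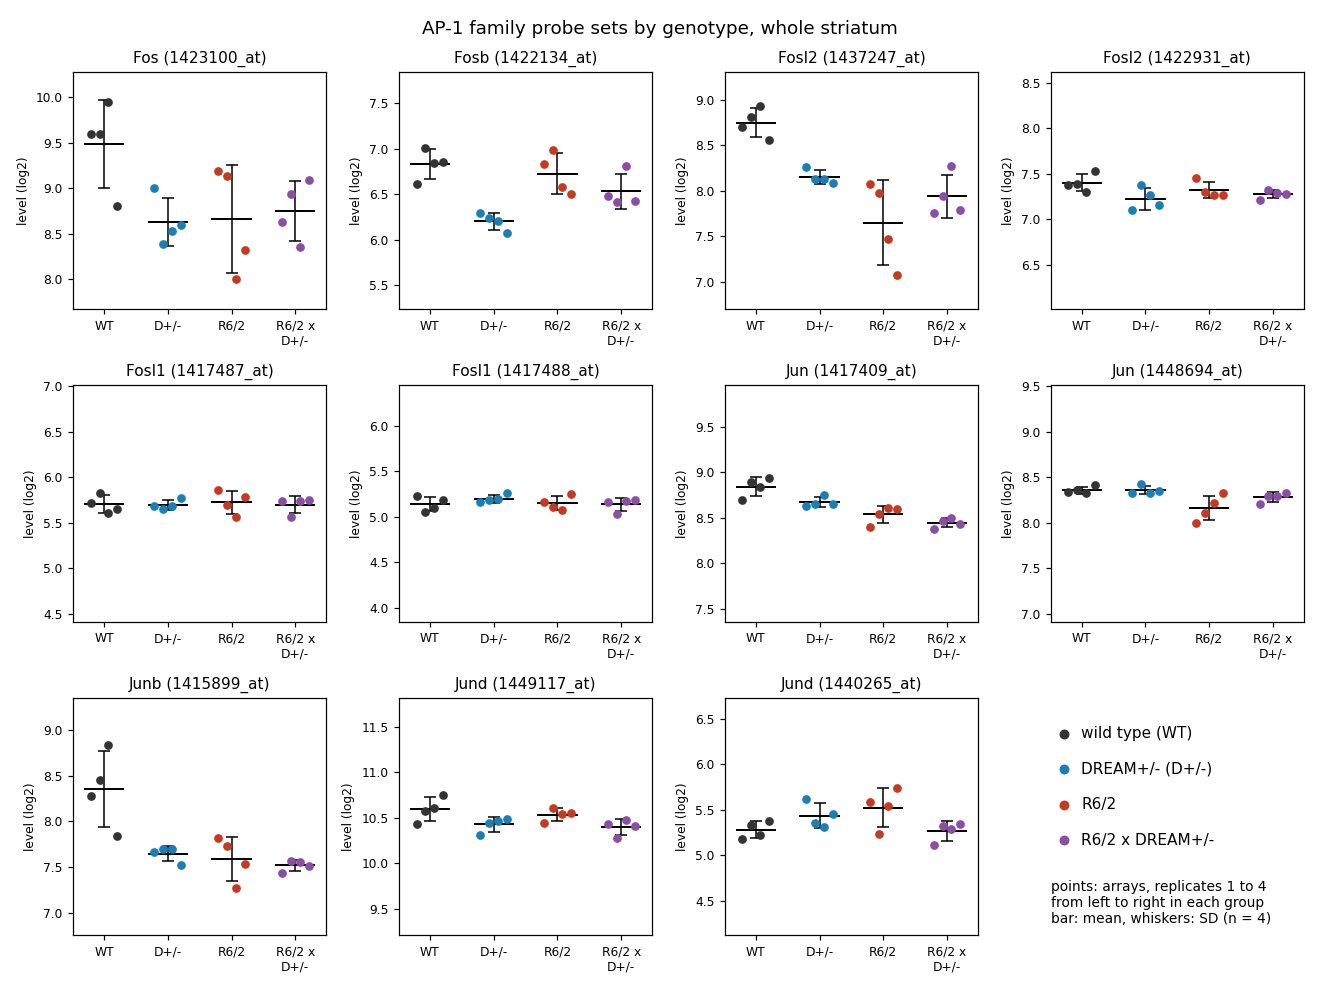
Level (log2) of each of the 11 AP-1 probe sets by genotype; points are arrays, bars are means and whiskers SDs (n = 4), and every panel spans the same height on the log2 scale. Fosl2 (1437247_at) and Junb sit higher in wild type than in all 12 other arrays, Fosb is lowest in DREAM+/-, and no difference passed the test in the Fosl1 and Jund panels.

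Wild type had the highest mean for Fos, Fosb, Junb, Jund (1449117_at) and both probe sets of Fosl2 and Jun. For Junb the order went on with DREAM+/-, R6/2 and R6/2 x DREAM+/-, whose means of 7.65, 7.59 and 7.52 lay within the R6/2 SD of 0.24. For Fosl2 (1437247_at) it went on with DREAM+/-, R6/2 x DREAM+/- and R6/2, where no neighbouring pair passed the test. For Fos the order went on with R6/2 x DREAM+/- at 8.75, R6/2 at 8.66 and DREAM+/- at 8.63, means closer to each other than their SDs of 0.26 to 0.59. For Jun (1417409_at) the order was wild type, DREAM+/-, R6/2 and R6/2 x DREAM+/-. Neither the first nor the last step of that order passed the test, and the middle step was not tested.

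The effect of the R6/2 transgene on the wild-type background was tested first. Fosl2, Junb, Jun and Fos fell, and Fosb, Fosl1 and Jund did not pass. Of the 11 probe sets 5 passed at an adjusted p under 0.05, all of them lower, whereas 13.2% of all probe sets passed in either direction and 6.42% passed as lower. The 5 were Fosl2 1437247_at, Junb, both Jun probe sets and Fos. In 3 of the 11 (Fosl2 1437247_at, Junb and Jun 1417409_at) every R6/2 array lay below every wild-type array, against 7.91% of all probe sets. At an unadjusted p under 0.05 the count was 6 of 11, against 26.5% of all. The median difference over the 11 was -0.10, beside 0.03 (0.025) over all probe sets. Without R6/2 replicate 1, and likewise without it and R6/2 x DREAM+/- replicate 3 together, 4 of the 11 were called, Jun 1448694_at being lost. The count was as low as 3 under quantile normalization, in the fit on the 2 groups alone and when one of several other arrays was left out, which leaves Fosl2, Junb and Jun by 1 probe set each.

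The mice labelled DREAM+/-, whose Kcnip3 level was 26.9% and 13% of wild type on its 2 probe sets, were compared with wild type in the absence of the transgene. Fosb and Junb fell, to 64.8% and 61.2% of wild type. Of the 11 probe sets these 2 passed, both lower, whereas 2.26% of all probe sets passed in either direction and 1.11% passed as lower. In 3 of the 11 (Fosb, Junb and Fosl2 1437247_at) every DREAM+/- array lay below every wild-type array, against 5.34% of all. At an unadjusted p under 0.05 the count was 7 of 11, against 14.0% of all probe sets, and the median difference was -0.17, beside -0.02 (-0.015) over all. With array weights 4 were called, Fos and Fosl2 1437247_at being added, and without DREAM+/- replicate 1, 2 or 4 or wild-type replicate 2 only Fosb was. Without R6/2 x DREAM+/- replicate 3, which enters this fit only through the shared estimate of the spread, 3 were called. This comparison and the last share the wild-type arrays, so a low or high wild-type array moves both alike.

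**Figure D2:**
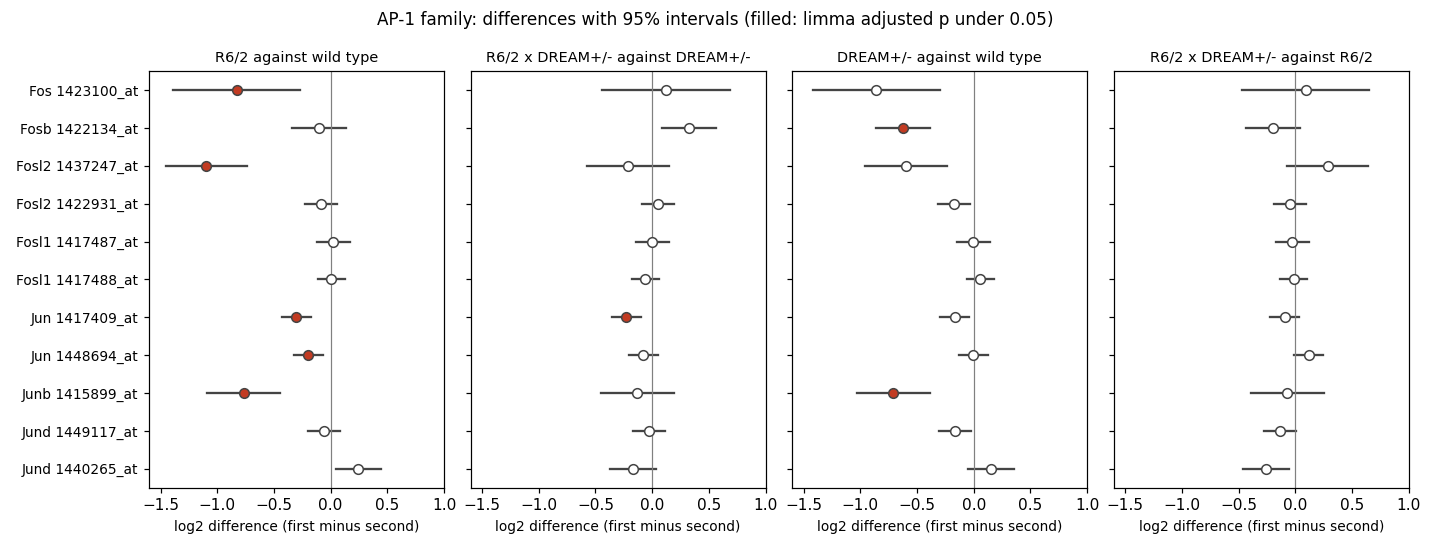
Log2 difference with its 95% interval for each of the 11 probe sets in 4 comparisons; filled points passed limma's test at an adjusted p under 0.05. In R6/2 against wild type 5 points are filled, in DREAM+/- against wild type 2, in R6/2 x DREAM+/- against DREAM+/- 1, and in R6/2 x DREAM+/- against R6/2 none.

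Between R6/2 x DREAM+/- and R6/2 no member passed the threshold. Kcnip3 read 34.1% of R6/2 on 1418544_at and 16.6% on 1449129_a_at here, from an R6/2 level already below wild type. In R6/2 x DREAM+/- against R6/2, 0 of the 11 passed limma's test at an adjusted p under 0.05, whereas 7.76% of all probe sets did, and 1 of 11 had an unadjusted p under 0.05, against 23.3% of all. Fosl2 (1437247_at) was 0.29 higher with a 95% interval of -0.07 to 0.65 (adjusted p = 0.332). The interval for Fos, -0.47 to 0.65 around 0.09, leaves room for a sizeable change in either direction. For Junb it was -0.39 to 0.25 around -0.07, and for Fosb -0.43 to 0.04 around -0.20 (-0.195). The 1 probe set with an unadjusted p under 0.05 was the dim Jund 1440265_at, at -0.26 (adjusted p = 0.108). Without R6/2 replicate 2 it was -0.35 (-0.355) with an adjusted p of 0.0248.

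The transgene's effect was then taken on the DREAM+/- background. Jun (1417409_at) fell and no other member passed. Of the 11, 1 passed as lower, whereas 6.93% of all probe sets passed and 4.01% passed as lower, so the share was near that of the array as a whole. The R6/2 x DREAM+/- arrays also lay below every DREAM+/- array, as in 5.81% of all probe sets, and 2 of 11 had an unadjusted p under 0.05, against 19.4% of all. Fosl2 1437247_at differed by -0.21 (95% interval -0.57 to 0.15, adjusted p = 0.569), Junb by -0.13 (-0.45 to 0.19, adjusted p = 0.729) and Fos by 0.12 (-0.44 to 0.68, adjusted p = 0.873). The corresponding values on the wild-type background were -1.10, -0.77 and -0.83.

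Whether the transgene's effect differed between backgrounds was tested as an interaction, and no member passed. Over all 34945 probe sets 0 passed limma's test after adjustment (0%), and 2121, or 6.07%, had an unadjusted p under 0.05. Among the 11 this count was 5, and no adjusted p was under 0.724. The largest were Fos, with an interaction of 0.95 (95% interval 0.16 to 1.74, unadjusted p = 0.0219, adjusted p = 0.796), and Fosl2 1437247_at, with 0.89 (0.885, 95% interval 0.38 to 1.39, unadjusted p = 0.00186, adjusted p = 0.724). Junb had 0.64 (unadjusted p = 0.0092, adjusted p = 0.737), Fosb 0.43 (unadjusted p = 0.0148, adjusted p = 0.758) and Jund 1440265_at -0.41 (unadjusted p = 0.00711, adjusted p = 0.724). A positive value means that the transgene's difference was higher, so less negative or positive, on the DREAM+/- background. There it was positive for Fosb (0.33) and Fos (0.12). These values fail the correction and are given as sizes, and they rest on the same wild-type arrays as the comparisons above.

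Mice with both changes were last compared with wild type. Jun (1417409_at, -0.40 from -0.395, adjusted p = 0.000311), Junb and Fosl2 (1437247_at) fell. These 3 of 11 passed as lower, whereas 15.6% of all probe sets passed and 8.50% passed as lower, and in the same 3 every array lay below every wild-type array, against 7.26% of all. At an unadjusted p under 0.05 the count was 6 of 11, against 27.5% of all. Without R6/2 x DREAM+/- replicate 3 the count was 5, with Fosb and Jund 1449117_at added. The median difference was -0.19, beside 0 over all probe sets.

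Arrays of 1 genotype differed in several members at a time. Fos and Junb deviated from their group means together (r = 0.77 over 16 arrays), as did Fosb and Fosl2 1437247_at (r = 0.76), Junb and Fosl2 1437247_at (r = 0.58) and Jun 1417409_at with Jund 1449117_at (r = 0.65). Other pairs went in opposite directions: Fosl2 1437247_at and Jun 1448694_at had r = -0.75 (-0.745), Fos and Jun 1448694_at -0.60, Fos and Jun 1417409_at -0.58, Fos and Jund 1449117_at -0.50, and Junb and Jun 1448694_at -0.44. Of the 55 pairs of member probe sets 28 had a positive and 27 a negative r. Wild-type replicate 4 was low for Fos, Junb and Fosl2, but not for Fosb, at 6.85. R6/2 replicates 3 and 4 were low for Fos, Fosb, Fosl2 and Junb, whereas R6/2 x DREAM+/- replicate 3 was the highest of its group for Fosb (6.81) and Fosl2 (8.27) and the lowest for Fos (8.35). These are descriptions over arrays that share labelling and normalization.

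**Figure D3:**
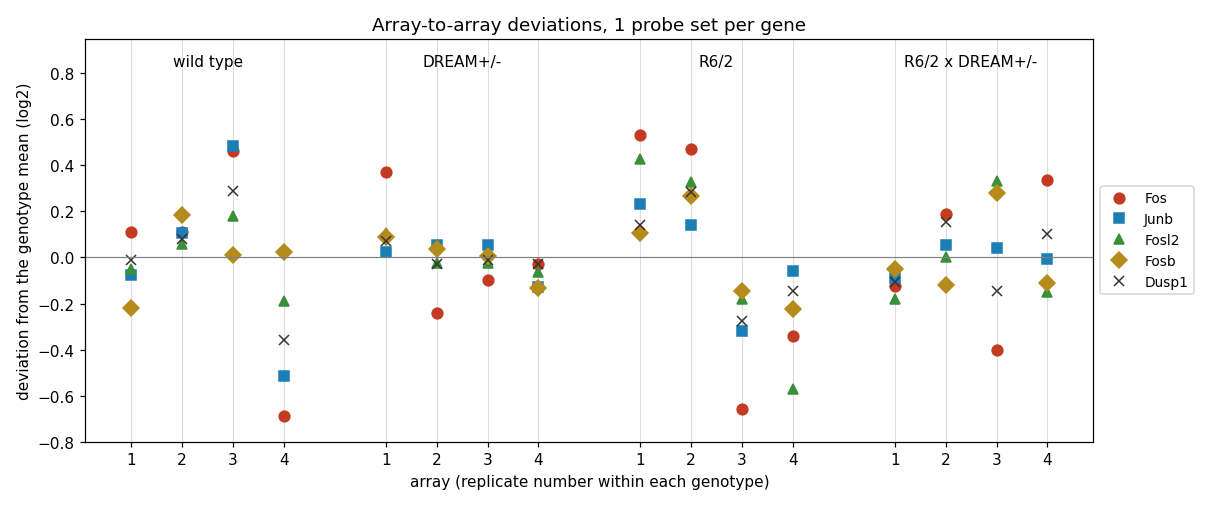
Deviation of each array from its genotype mean (log2) for Fos, Junb, Fosl2 (1437247_at), Fosb and, for comparison, the phosphatase gene Dusp1; columns are the 16 arrays, 4 replicates for each genotype. Fos, Junb, Fosl2 and Dusp1 lie below 0 together in wild-type replicate 4, DREAM+/- replicate 4, R6/2 replicates 3 and 4 and R6/2 x DREAM+/- replicate 1.

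The genes most like each member over the 16 arrays were taken among probe sets at or above the brightness percentile, 1 probe set for a gene, by Pearson's r, with the r of deviations within genotypes beside it. For Fosl2 they were Nr4a3 (r = 0.97, 0.90 within genotypes), an orphan nuclear receptor and immediate early gene, Tiparp (0.96, 0.87), an ADP-ribosyltransferase, and Dnajb5 (0.93, 0.73), a heat shock co-chaperone. For Junb they were Dusp1 (0.91, 0.86), a MAP kinase phosphatase, Egr4 (0.91, 0.73), a zinc finger immediate early gene, and the cadherin Cdhr1 (0.90, 0.69). For Fos they were Tiparp (0.84, 0.79), Dusp1 (0.83, 0.94) and Nr4a1 (0.83, 0.79). For Jun they were Ldlrad4 (0.96, 0.80), Syt12 (0.93, 0.66) and the adrenergic receptor gene Adra2c (0.93, 0.71). Fosb had Zfp263 (0.91, 0.82), Clasp1 (0.90, 0.74) and Rmdn3 (0.89, 0.71), none of them a listed immediate early gene. Jund had Fkbp8 (0.87, 0.76), Triobp (0.85, 0.81) and Inafm1 (0.83, 0.68), and the dim Fosl1 had Hcrt (0.79, 0.88), Apoa5 (0.77, 0.78) and Trim80 (0.75, 0.76). These lists were picked as the highest of many, so their r values describe these arrays alone.

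Genes around AP-1 were read with 1 probe set each, the brightest for the gene. Over the 18193 genes 7.44% passed as lower and 8.22% as higher in R6/2 against wild type, and 1.17% and 0.929% did in DREAM+/- against wild type. On this footing the AP-1 family had 4 of 7 lower in R6/2 (median -0.30) and 2 of 7 lower in DREAM+/- (median -0.60).

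Among other immediate early genes the calls against wild type were all lower. In R6/2 12 of 14 fell and 0 rose (median -0.81), among them Egr2 (-2.69, adjusted p = 4.87e-07), Nr4a2 (-1.24), Homer1 (-0.64, adjusted p = 3.6e-07), which encodes a postsynaptic scaffold, and Ier5 (-0.61). In DREAM+/- 4 of 14 fell, and they were Npas4 (-0.82, adjusted p = 0.00857), Arc (-0.74), Egr4 (-0.51) and Egr2 (-0.87 from -0.865), the median being -0.37. With R6/2 as the reference, the R6/2 x DREAM+/- arrays showed calls in both directions, since Npas4 fell by 0.65 (adjusted p = 0.0186), while Nr4a2 rose by 0.97 (adjusted p = 8.1e-05) and Homer1 by 0.17 (0.165, adjusted p = 0.0344), whereas 4.73% of all genes passed as lower and 2.91% as higher. Of the 14, 7 fell in R6/2 x DREAM+/- against DREAM+/-, where 1 of the 7 AP-1 genes did and 4.71% of all genes passed as lower.

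Genes whose products dimerize with the family were read next. Over all genes 7.44% passed as lower and 8.22% as higher in R6/2 against wild type. In DREAM+/- against wild type 1.17% and 0.929% did, so few calls would be met among 12 genes at these shares. Of 12 measured partners of Fos and Jun proteins, among them the Atf, Batf, Jdp2 and Maf genes, 0 passed limma's test in R6/2 or in DREAM+/- against wild type (medians 0.04 and -0.01), where Atf2 had an unadjusted p of 0.0354 and 0.027. Maf alone passed in R6/2 x DREAM+/- against R6/2, and rose by 0.38 (adjusted p = 0.0295), where 2.91% of all genes passed as higher. Of the 14 measured kinases and factors that act on the Fos and Jun promoters or proteins, 3 fell in R6/2: Rps6ka5 (MSK1, a kinase of CREB and histone H3) by 0.79 (adjusted p = 4.74e-06), Srf, the serum response factor, by 0.52 (adjusted p = 0.000101), and Rps6ka3 (RSK2) by 0.40 (adjusted p = 0.00248). In DREAM+/- 0 of 14 passed, with Srf at -0.06 and Rps6ka5 at -0.07. Creb1, whose product binds the CRE, rose by 0.55 in R6/2 x DREAM+/- against R6/2 (adjusted p = 0.0371) and by 0.865 against wild type (adjusted p = 0.000967). Its differences from wild type in R6/2 (0.315, adjusted p = 0.201) and DREAM+/- (0.395, adjusted p = 0.234) were also positive and did not pass. R6/2 x DREAM+/- against DREAM+/- gave 0.47 (adjusted p = 0.0787).

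Of 15 measured genes known as AP-1 targets, 2 fell and 2 rose in R6/2 (median 0.07). Over all genes 7.44% passed as lower and 8.22% as higher there, so for a list of this length both counts were close to these shares. The opioid peptide genes Penk and Pdyn fell by 0.90 and 0.67 (adjusted p = 2.03e-06 and 0.000336), and Vim, an intermediate filament gene, and Scg2, a secretogranin gene, rose by 0.44 and 0.19. In DREAM+/- 0 of 15 passed (median -0.02), with Pdyn, which is also a described DREAM target, at -0.33 (adjusted p = 0.119). Penk and Pdyn are also medium spiny neuron markers.

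**Figure D4:**
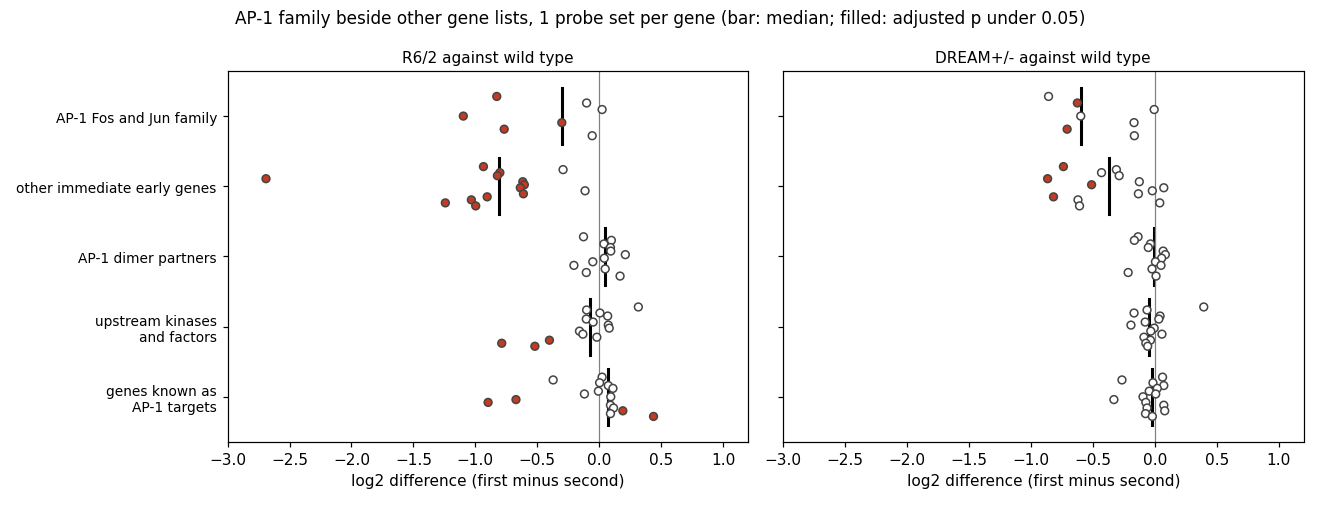
Log2 difference of each gene (points, 1 probe set for a gene; filled where the adjusted p was under 0.05) in the AP-1 family and 4 related lists, with the list median as a bar. In R6/2 against wild type the filled points of the AP-1 family (4 of 7) and of the other immediate early genes (12 of 14) all lie below 0, and in DREAM+/- against wild type 2 of 7 and 4 of 14 do.

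Markers of some cell types also differed between R6/2 and wild type. Over all genes 7.44% passed as lower and 8.22% as higher in that comparison. All 8 measured medium spiny neuron markers fell in R6/2 against wild type, and their mean level per array was 10.93 to 11.12 in R6/2 and 10.83 to 11.21 in R6/2 x DREAM+/-, against 11.70 to 11.81 in wild type. Of 8 cortical projection neuron markers 4 fell in R6/2, with array means of 7.54 to 7.96 against 8.12 to 8.37 in wild type, and 4 rose in R6/2 x DREAM+/- against R6/2, where the range was 8.10 to 8.41 (8.095 to 8.405). In R6/2 x DREAM+/- against R6/2, 4.73% of all genes passed as lower and 2.91% as higher. The part of these markers in the AP-1 differences of R6/2 was not tested. In DREAM+/- against wild type, where Fosb and Junb fell, 0 of the 8 medium spiny neuron markers and 0 of the 8 cortical markers passed limma's test, and their array means were 11.54 to 11.67 (11.535 to 11.665) and 8.20 to 8.44. The former lie below all wild-type arrays by less than the R6/2 means do. Choroid plexus markers, which mark tissue from the ventricle wall, spread widely, from 8.37 to 10.2 in DREAM+/- and from 8.63 to 9.15 in wild type, and 1 of 6 rose in DREAM+/-. Over all genes 1.17% passed as lower and 0.929% as higher in DREAM+/- against wild type. The part of these markers in the DREAM+/- differences was not tested. Of 6 astrocyte markers 1 fell in R6/2, of 5 oligodendrocyte markers 1 fell, and of 6 microglial and 6 endothelial markers 0 passed there. In R6/2 x DREAM+/- against wild type, where Jun, Junb and Fosl2 fell, 7 of 8 medium spiny neuron markers were called lower, 6 astrocyte markers gave 3 lower and 1 higher, and 6 microglial markers gave 1 lower and 2 higher. There 1 of 5 oligodendrocyte markers fell, 1 of 6 choroid plexus markers rose, and 0 of 8 cortical and 0 of 6 endothelial markers passed limma's test. In that comparison 15.6% of all probe sets passed and 8.50% passed as lower, so 1 call among 5 or 6 markers was not read as a change. In R6/2 x DREAM+/- against DREAM+/-, where Jun fell, all 8 medium spiny neuron markers fell, as did 1 of 6 astrocyte and 1 of 5 oligodendrocyte markers. Over all genes 4.71% passed as lower there. The part of these markers in the AP-1 differences was not tested. No choroid or other brain cell marker measured was under the brightness percentile, whereas the haemoglobin gene Hba-a1 was.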

How the data were processed

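The authors deposited log2 levels for 45101 probe sets of 16 arrays (values from 3.34 to 14.71), made with RMA in the affy package, per the submitters' processing notes, with no version given. RMA corrects background, quantile-normalizes arrays and summarises probes, so a shift common to all genes would be removed. The genome build behind the probe annotation is not stated by the labels or file headers, and a brightness below background cannot be read from these values. Genes were named from the platform annotation: 34945 probe sets have exactly 1 symbol, and 932 with several were left out, none of which names a member.

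Each probe set was fitted with limma 3.58.1 in R 4.3.3 (lmFit, eBayes), with 1 mean for each of 4 genotypes over all 16 arrays, no covariates and no brightness filter. P-values were adjusted by the Benjamini-Hochberg method over all 34945 probe sets and called under 0.05. The fit was tested on simulated data. Intervals are 95%. The members and gene lists were chosen with earlier results of these data known. Named genes are every member probe set, Kcnip3, up to 4 genes of each list called in R6/2 against wild type by smallest p, and the 3 genes most like each member. Npas4, Arc, Egr4, Maf, Mafg, Mafk, Batf2, Atf2 and Creb1 were named after their values were seen. Listed genes without a probe set of their own were not used here. The number of arrays limits the precision. Alternatives were common-median scaling, quantile normalization, a brightness filter at the 40th percentile, 1 probe set per gene, trend and robust variance, array weights, only the groups compared, the replicate number as a block, and leaving out arrays.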

Additional observations from a re-analysis of the deposited data

Results flagged for a closer look

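In 4 of the 44 groups of 4 arrays tested 1 array lay far from the others by Dixon's criterion, which chance meets in about 1 group in 20. Junb read 7.52 in DREAM+/- replicate 4 against 7.67 to 7.70 in the others. Jun 1417409_at read 8.75 in DREAM+/- replicate 3 against 8.63 to 8.65. In R6/2 x DREAM+/- replicate 2 both Fosl1 probe sets were low, 1417487_at at 5.56 against 5.74 to 5.75 and 1417488_at at 5.03 against 5.16 to 5.18. No interaction of R6/2 and DREAM+/- passed the test for a member.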

How the results depend on the processing

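Of 1317 values recomputed for the members other than Fosl1, 1236 kept their direction and their side of the threshold, 42 lost the call, 20 gained one and 19 changed sign, all 19 without a call. The number of AP-1 probe sets called in R6/2 against wild type was 5, and 3 with quantile normalization and with only the 2 groups compared. Leaving out 1 array at a time gave 3 to 5. In DREAM+/- against wild type it was 2, 4 with array weights, and 1 to 3 with 1 array left out. It was 0 to 1 in R6/2 x DREAM+/- against R6/2 and 0 to 1 against DREAM+/-. In R6/2 x DREAM+/- against wild type it was 3, 5 without R6/2 replicate 1 and R6/2 x DREAM+/- replicate 3 together, and 3 to 5 with 1 array left out. The interaction had 0 throughout. The cause of these shifts was not tested.

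Sign changes were small and had no call. Jun 1448694_at, DREAM+/- against wild type, was 0.019 with quantile normalization, 0.0044 with array weights and -0.024 to 0.015 with 1 array left out. The latter range was -0.18 to 0.0075 for Junb 1415899_at, R6/2 x DREAM+/- against R6/2, -0.062 to 0.0017 for Fosl2 1422931_at, R6/2 x DREAM+/- against R6/2, and -0.13 to 0.27 for Fos 1423100_at, R6/2 x DREAM+/- against R6/2. It was -0.067 to 0.013 (0.0125) for Jund 1449117_at, R6/2 x DREAM+/- against DREAM+/-, and -0.045 to 0.039 for Jund 1440265_at, R6/2 x DREAM+/- against wild type. Jund 1449117_at, interaction of R6/2 and DREAM+/-, was -0.0060 with array weights, -0.028 without both arrays that stood apart, and -0.023 (-0.0225) to 0.084 with 1 array left out.

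Replicate numbers gave no clear pairing of the arrays. Same-numbered arrays deviated together in 8 of 24 pairs (r over 0.1, range -0.46 to 0.32), and 6 of 16 arrays correlated best with their own number. Differently numbered pairs were not counted in this way, so these counts cannot exclude a batch shared by number. With the replicate block 4 probe sets were called in R6/2 and 2 in DREAM+/-, both against wild type. Mice with both changes had 0, 1 and 4 in the comparisons with R6/2, DREAM+/- and wild type, and the interaction had 0.

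Over all probe sets the number called in R6/2 against wild type, 4599, stayed within 1.5 times under the alternatives run. In DREAM+/- against wild type it was 790, 1550 with array weights, 452 with 1 probe set per gene, and 423 to 1403 with 1 array left out. For mice with both changes it was 2711 against R6/2 (1749 with only the 2 groups, 1614 with 1 probe set per gene, as few as 1410 without R6/2 replicate 4). Against DREAM+/- it was 2420 (3741 with array weights, as few as 1372 without DREAM+/- replicate 2), and against wild type 5454 (2785 with only the 2 groups, 3352 with 1 probe set per gene). Counts with 1 probe set per gene are out of 18193 genes, not 34945 probe sets. Their shares were 2.48%, 8.87% and 18.4% in these 3 comparisons, above the 2.26%, 7.76% and 15.6% of the main fit. The interaction gained 1 probe set, no member, with common-median scaling and without DREAM+/- replicate 4.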
